A study of Mus musculus with 9 samples.

Results

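The genes described here are 37 genes of glycolysis and of the response to low oxygen, measured in mouse NP53 cells and in derivatives of these cells that carry a TIM-3 knockout. They were chosen by symbol: the enzymes that turn glucose into lactate, the carriers of glucose and lactate, kinases that set the flow, and the oxygen-sensing factors with some of their targets. They matched 38 of the 55401 gene IDs in the files, because Aldoa has a second ID, and all 38 passed the filter on low counts, which kept 15659 genes. The groups were G1C7 and G2C9, each labelled as a TIM-3 knockout derivative, and Gcontrol, labelled as wild type, with 3 libraries each. NP53 is labelled as a diffuse midline glioma (DMG) tumour cell line, a childhood tumour of the brain stem and midline, and all groups were grown in DMEM with fetal bovine serum. The names G1C7 and G2C9 are given without a guide sequence or a statement on cloning, and whether the 3 libraries of a group are separate cultures is not labelled. A p-value here measures only the spread among these libraries, which may be technical.

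In glycolysis, hexokinases trap glucose in the cell as glucose 6-phosphate, phosphofructokinase commits it to breakdown, and the lower enzymes make pyruvate and energy. Lactate dehydrogenase then turns pyruvate into lactate, which monocarboxylate transporters carry out of the cell. When oxygen is low, the prolyl hydroxylases of the EGLN family stop marking the HIF alpha subunits for destruction, and HIF raises the transcription of many of these enzymes together with genes for pH control, mitophagy and collagen processing. Tumour cells, glioma cells among them, often run glycolysis at a high rate even with oxygen present. HIF is controlled mainly at the protein level, which was not measured here.

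Each library held between 50110129 and 56035382 reads in genes. Along the first 2 principal components of all genes tested, the Gcontrol libraries lay together, while 1 library of each derivative, replicate 2 in G1C7 and replicate 3 in G2C9, lay away from its group. No label separates these 2 libraries, called the libraries that stood apart, so results are given with all 9 libraries and without both of them. Havcr2, which encodes TIM-3, an immune checkpoint receptor best known from T cells, had 55, 6 and 66 reads in G1C7, 39, 30 and 28 reads in G2C9, and 74, 58 and 60 reads in Gcontrol. The edited stretch of the gene is not stated, and reads outside it would still be counted. All G2C9 libraries and G1C7 replicates 1 and 2 lie below every Gcontrol library in these reads, and G1C7 replicate 3 lies within the Gcontrol range. Of 12 glioma and progenitor markers, Vim, Cd44 and Pdgfra were abundant in all groups, while Olig1 and Olig2, which define the oligodendroglial lineage, were at 0 reads in all 9 libraries. The 8 T and NK cell markers summed to at most 0.099 counts per 1000000 reads (CPM) in any library, and Tyrobp (microglia), Cldn5 (endothelium) and Snap25 (neurons) were at 0 reads. Other markers of the same lists were detected, with Cd68, Tubb3 and Map2 read in every library. Of 8 microglia and macrophage markers, 2, 2 and 3 averaged over 1 CPM in G1C7, G2C9 and Gcontrol. In the same order it was 1, 1 and 0 of 6 endothelial markers, and 3, 3 and 2 of 5 neuron markers.

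The HIF core motif was searched in the 250 bases before the annotated start of each gene, for which RefSeq (GRCm38.p6) gave 47 windows of 34 of the 37 genes, some of them overlapping. The letters searched were ACGTG and GCGTG on both strands, so the second strand reads CACGT and CACGC, and a CACGTG counts on both strands. One or both were found in 38 windows, which is 80.9%, against 38.6% of 32851 windows of all genes in the same table. ACGTG was found in 48.9% of the members' windows and in 16.6% of all windows, and GCGTG in 55.3% and 28.2%. At gene level 30 members held a match and 4 did not. A match is a description of the letters and not evidence of binding. The windows were not matched for base content, and some members were chosen as targets of the oxygen-sensing factors. The upstream stretches of 5 genes that the results below turn on are shown 5′ to 3′ on the gene's strand, without annotated exons and with matches in capitals. Slc16a3 (chr11:120948817-120949052, + strand) is shown because it moved in opposite directions in the derivatives. Bnip3 (chr7:138909520-138909756, − strand), P4ha2 (chr11:54100674-54100923, + strand), Ddit4 (chr10:59951835-59952020, − strand) and Ankrd37 (chr8:45999868-46000100, − strand) are 4 of the 21 members that were high in G1C7 replicate 2. High here means at least 1.5-fold above both other G1C7 libraries. Gpi1, Car9, Car12 and Eno2 were high there too, but their stretches without annotated exons hold no match. The full searched window of Car9 holds 1. Whether a match goes with a higher level was not tested.
Slc16a3: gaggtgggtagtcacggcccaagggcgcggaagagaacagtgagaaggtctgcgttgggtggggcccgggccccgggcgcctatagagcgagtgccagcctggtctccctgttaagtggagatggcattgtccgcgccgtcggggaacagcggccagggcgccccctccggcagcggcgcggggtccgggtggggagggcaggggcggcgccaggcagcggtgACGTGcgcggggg
Bnip3: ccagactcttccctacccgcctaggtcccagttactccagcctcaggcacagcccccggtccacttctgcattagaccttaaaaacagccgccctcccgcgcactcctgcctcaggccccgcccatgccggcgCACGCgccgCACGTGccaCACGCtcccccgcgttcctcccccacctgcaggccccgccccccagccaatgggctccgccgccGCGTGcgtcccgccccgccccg
P4ha2: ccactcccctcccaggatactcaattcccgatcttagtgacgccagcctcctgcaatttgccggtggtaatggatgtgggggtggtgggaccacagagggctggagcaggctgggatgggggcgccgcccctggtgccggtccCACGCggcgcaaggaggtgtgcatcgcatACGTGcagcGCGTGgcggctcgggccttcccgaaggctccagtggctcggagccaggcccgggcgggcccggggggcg
Ddit4: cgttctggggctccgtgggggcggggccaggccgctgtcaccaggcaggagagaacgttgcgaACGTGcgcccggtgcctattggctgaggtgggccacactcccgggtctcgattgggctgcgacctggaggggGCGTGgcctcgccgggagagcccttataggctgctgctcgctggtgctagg
Ankrd37: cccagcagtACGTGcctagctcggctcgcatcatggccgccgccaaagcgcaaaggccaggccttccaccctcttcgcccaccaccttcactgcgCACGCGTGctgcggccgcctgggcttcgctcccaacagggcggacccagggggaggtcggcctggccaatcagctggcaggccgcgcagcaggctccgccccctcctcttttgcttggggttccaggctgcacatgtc
The printed Slc16a3 stretch holds ACGTG 27 bases before a RefSeq start that lies inside the gene's GENCODE span. The printed stretches of Ankrd37 and P4ha2 also lie inside the GENCODE spans of their genes. The searched window of Slc16a3 holds a second ACGTG nearer the start, in bases not printed. The window of Ankrd37 likewise holds 1 more match near the start than is printed. Bnip3 holds matches on both strands that start between 117 and 35 bases before the start, one of them CACGTG, and P4ha2 holds 3 matches that start between 107 and 69 bases before it.

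Most of these genes, like most of all genes tested, did not pass the test of a difference in mRNA in the fit of all 9 libraries. With all 9 libraries, 6 of the 38 members passed the test in G1C7 against Gcontrol, 1 higher and 5 lower, where 17.5% of all genes tested passed (8.77% higher and 8.73% lower). In G2C9 against Gcontrol 3 members passed, 2 higher and 1 lower, where 13.5% of all genes passed (6.25% higher and 7.22% lower). Between the derivatives, 2 members passed, both lower in G1C7 than in G2C9, where 3.36% of all genes passed (1.71% higher and 1.65% lower). The share of members that passed was 15.8% in G1C7 against Gcontrol, near the 17.5% of all genes. It was 7.89% in G2C9 against Gcontrol and 5.26% between the derivatives, beside 13.5% and 3.36% of all genes. These shares rest on 38 members, and no test was made on them. The median log2 fold change of the members was 0.19 in G1C7 and 0.18 in G2C9, against 0.02 and 0.01 over all genes tested. In G1C7, every library lay above every Gcontrol library for 11 members and below for 7, where 21% and 22.1% of all genes did so. In G2C9 this held for 12 members above and 5 below, where 20.4% and 22.9% of all genes did so, and G1C7 lay wholly above G2C9 for 3 members and below for 6, where 9.74% and 8.5% of all genes did so. The test throughout was edgeR's quasi-likelihood test with Benjamini-Hochberg adjustment over all genes tested, and a gene passed at an adjusted p under 0.05. Both derivatives were compared with the same Gcontrol libraries. In these bulk libraries, fewer cells that express a gene and less RNA per cell cannot be told apart.

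The 6 genes that passed in at least 1 comparison were Epas1, Slc16a3, Slc16a1, Hk2, Eno1 and Pfkfb4. They cover oxygen sensing, lactate transport, the first step of glycolysis, a late step and a regulator of flow. The plot of their levels by library shows that their groups do not overlap in the comparisons in which they passed.

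**Figure D1:**
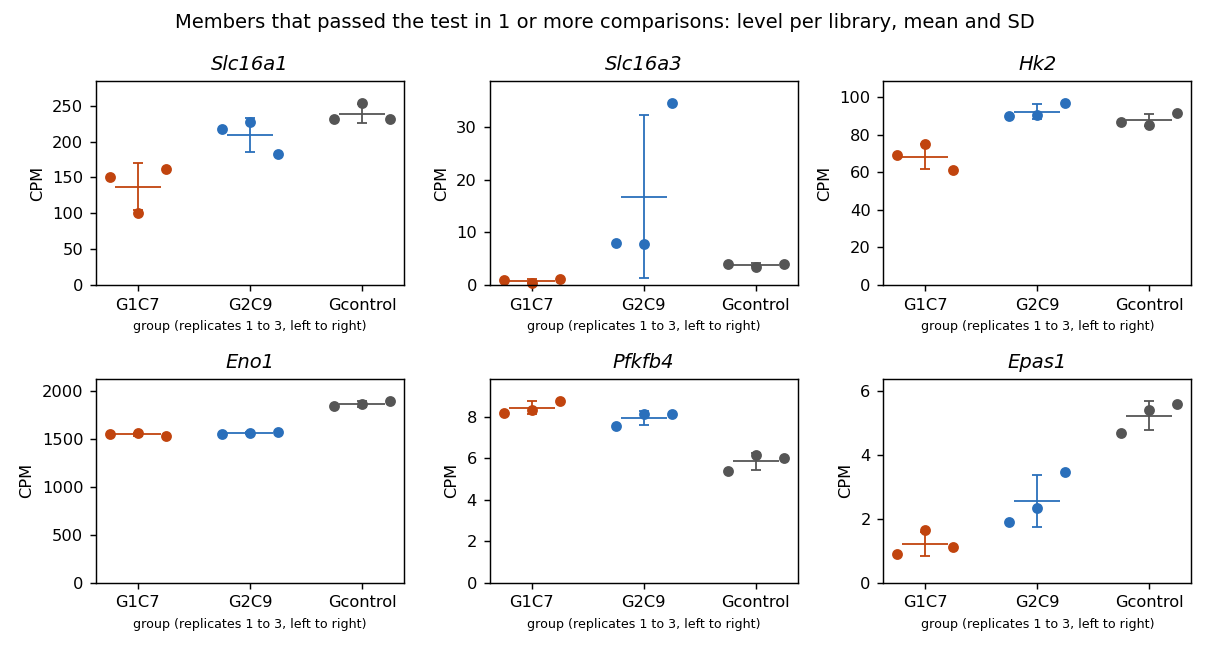
Level in CPM (vertical axis from 0) of the 6 members that passed the test in at least 1 comparison, by group (horizontal axis). Points are libraries, horizontal bars the mean and whiskers the SD of 3 libraries; Epas1 lies below 4 CPM in every library of the derivatives and above it in every Gcontrol library, and Slc16a3 is high in G2C9 and low in G1C7.

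Glycolytic enzymes were among the most abundant transcripts of the set. In levels comparable between genes, Gcontrol held 587 ± 3.09 CPM per kilobase of gene length (RPKM) of Gapdh, the enzyme that makes NADH in glycolysis, 558 ± 15 RPKM of Pkm, pyruvate kinase, and 443 ± 11.3 RPKM of Ldha, the main lactate dehydrogenase subunit (SD, n = 3). Pgk1 (413 ± 13.8 RPKM), Eno1 (347 ± 5.2), Tpi1 (244 ± 4.07), Aldoa (240 ± 3.23), Pgam1 (169 ± 3.4) and Gpi1 (66.4 ± 1.35) followed in Gcontrol. The neighbours Tpi1 and Aldoa in this order differed by less than their spread, and Gapdh and Pkm by more. At the other end lay Car12 with 0.0369 ± 0.00816 RPKM and Aldoc, the brain aldolase, with 0.231 ± 0.0455 RPKM. The 17 glycolytic enzymes together took 1.14%, 1.37% and 1.16% of reads in the G1C7 libraries, 1.19%, 1.21% and 1.34% in the G2C9 libraries, and 1.23%, 1.24% and 1.25% in the Gcontrol libraries. The highest value of each derivative belongs to the library that stood apart, and the other 4 libraries of the derivatives lie below every Gcontrol library.

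Of the 18 IDs of these enzymes, 2 passed in G1C7, both lower, where 17.5% of all genes passed. In G2C9 0 of them passed with edgeR, where 13.5% of all genes passed, 4 of the 18 had an unadjusted p under 0.05, DESeq2 called 3 and limma-voom 2. Hk2 (ENSMUSG00000000628.10; chr6:82725025-82774454, − strand, GRCm38), the inducible hexokinase bound to mitochondria, had 69.1, 75 and 61.3 CPM in G1C7, 89.9, 90.4 and 97.1 CPM in G2C9, and 86.7, 85.3 and 91.6 CPM in Gcontrol. Every G1C7 library lies below every library of the other groups, while G2C9 and Gcontrol overlap. The log2 fold change of Hk2 was -0.36 ± 0.09 in G1C7 against Gcontrol (SE, adjusted p = 0.0284), 0.07 ± 0.09 in G2C9 against Gcontrol (0.667) and -0.43 ± 0.09 in G1C7 against G2C9 (0.0393). The direct test thus separated the derivatives for Hk2. The genes within 5 Mb of Hk2 had a median log2 fold change of -0.02 in G1C7. The G1C7 call held in 8 of 16 other settings; it was lost without G1C7 replicate 1, G1C7 replicate 3 or any 1 Gcontrol library (adjusted p up to 0.103), with values from -0.39 to -0.29. The difference between the derivatives held in 5 of 16 (up to 0.199); leaving out any 1 library other than G1C7 replicate 2 ended it.

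Hk1, the hexokinase expressed in most cells and dominant in brain, had 175, 223 and 167 CPM in G1C7, 188, 188 and 224 CPM in G2C9, and 148, 141 and 153 CPM in Gcontrol. The groups do not overlap with Gcontrol, but the adjusted p was 0.0914 in G1C7 and 0.054 in G2C9. Its log2 fold changes of 0.35 and 0.44 stand beside medians of 0.36 and 0.33 for the genes within 5 Mb on chromosome 10, so its neighbours moved by a like amount. As a share of the RPKM of all hexokinase genes, Hk1 made up 62.8%, 67.2% and 64.3% in G1C7, 58.9%, 58.8% and 61.3% in G2C9, and 54%, 53.1% and 53.7% in Gcontrol. The Hk1 share is thus higher in each library of the derivatives than in any Gcontrol library, and higher in G1C7 than in G2C9. This share is a description, and no test was made on it.

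Eno1 (ENSMUSG00000063524.13; chr4:150236721-150248879, + strand), the enolase of most tissues, had 1550, 1560 and 1530 CPM in G1C7, 1550, 1560 and 1570 CPM in G2C9, and 1840, 1860 and 1900 CPM in Gcontrol. The 6 libraries of the derivatives, including both that stood apart, lie close together and below Gcontrol. Eno1 had a log2 fold change of -0.27 ± 0.08 in the G1C7 comparison (adjusted p = 0.0369) and of -0.26 ± 0.08 in the G2C9 comparison, which missed the threshold (0.054). The median of the genes within 5 Mb was -0.16 in G1C7 and -0.25 in G2C9. The G1C7 call is close to the threshold: it held in 6 of 16 other settings, with an adjusted p of up to 0.176, while the value stayed between -0.29 and -0.27. It was lost without any 1 library other than G1C7 replicate 2 and G2C9 replicate 3.

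Eno2, the neuronal enolase and a hypoxia-responsive gene, had 15.2, 64.8 and 13.3 CPM in G1C7, 13.3, 14.7 and 35.3 CPM in G2C9, and 12.2, 10.3 and 12.4 CPM in Gcontrol. Its groups do not overlap with Gcontrol, but G1C7 replicate 2 and G2C9 replicate 3 lie far above the rest, and the log2 fold changes of 1.42 in G1C7 and 0.86 in G2C9 did not pass (adjusted p = 0.159 and 0.423). Without both libraries Eno2 had log2 fold changes of 0.29 ± 0.09 for G1C7 (adjusted p = 0.0129) and 0.27 ± 0.09 for G2C9 (0.023). In the enolase family the muscle isozyme Eno3, which is no member, took 20%, 22.4% and 20.3% of the RPKM in G1C7, 16%, 16.6% and 24.2% in G2C9, and 8.36%, 8.39% and 8.04% in Gcontrol, and Eno1 the most in all libraries.

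Phosphofructokinase, the committed step, has 3 isozymes, and none passed the test with all libraries. Pfkp, the platelet isozyme, had 29.9, 97.4 and 29.3 CPM in G1C7, 28, 26.8 and 52.6 CPM in G2C9, and 59.8, 59.9 and 65.1 CPM in Gcontrol. All G2C9 libraries and G1C7 replicates 1 and 3 lie below Gcontrol, and G1C7 replicate 2 lies above it. With all libraries Pfkp had log2 fold changes of -0.24 ± 0.47 for G1C7 (adjusted p = 0.768) and -0.78 ± 0.47 for G2C9 (0.326), and without both libraries it was -1.05 ± 0.06 (5.61e-11) and -1.17 ± 0.06 (2.05e-11). Its neighbours within 5 Mb had medians of -0.36 and -0.39. Pfkp shares 748 exonic bases with Pitrm1 on the other strand, and the counting ignored strand and dropped reads in shared exons, so its level may be understated. Pfkl, the liver isozyme, averaged 203 ± 19.4 CPM in G1C7, 216 ± 24.3 CPM in G2C9 and 177 ± 6.86 CPM in Gcontrol, and Pfkm, the muscle isozyme, 102 ± 32.9, 98.7 ± 28.8 and 120 ± 2.68 CPM in the same order. In the share of family RPKM, Pfkl led Pfkm in 4 libraries of the derivatives, the ones other than the 2 that stood apart, with 50.6% to 54.1%, and Pfkm led in the 3 Gcontrol libraries with 52.5% to 54.1%.

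**Figure D2:**
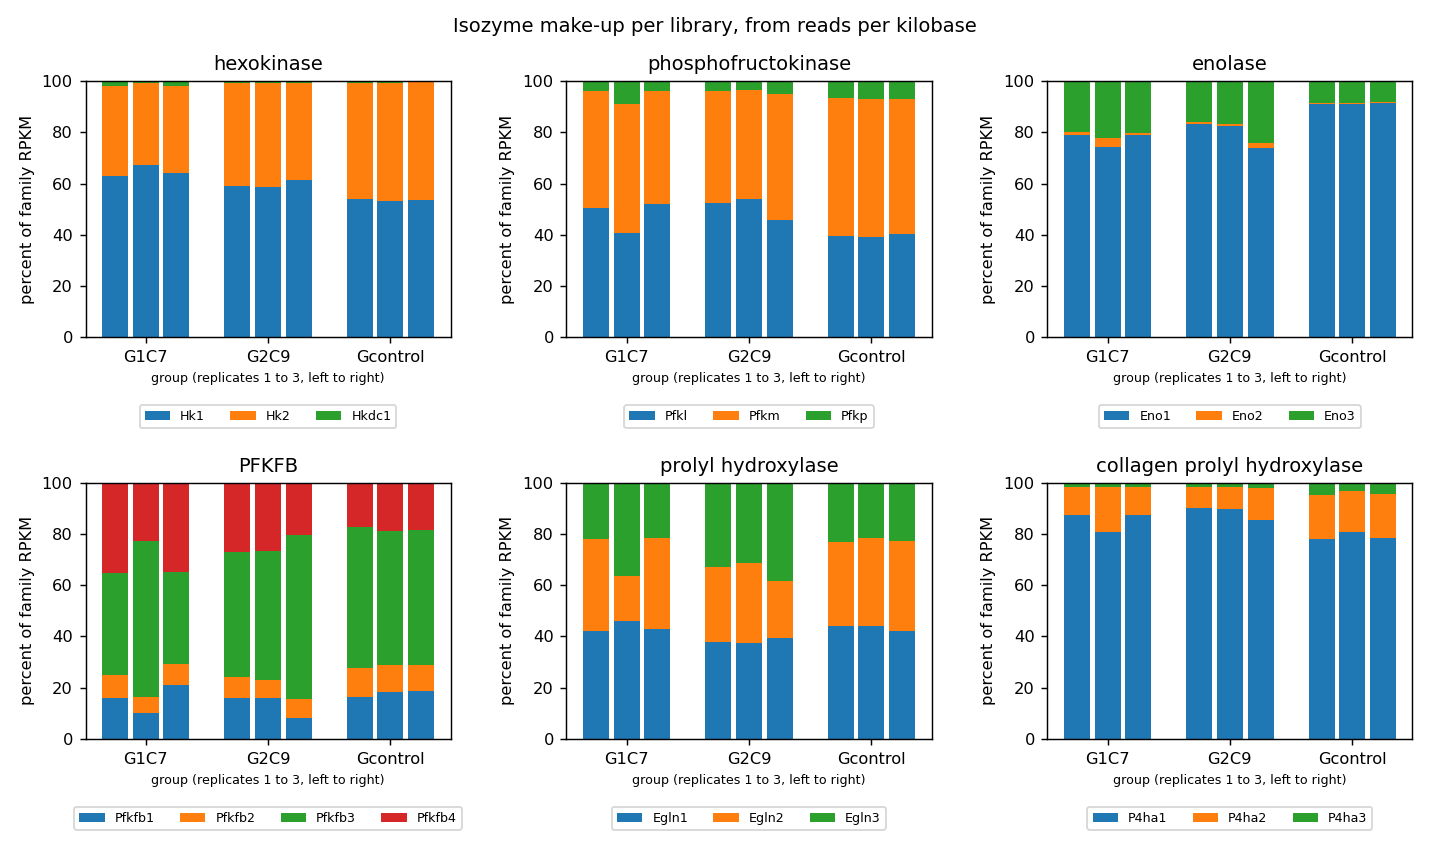
Share of each isozyme in the RPKM of its family (vertical axis, percent) in each library (stacked bars, grouped by G1C7, G2C9 and Gcontrol), for 6 families; isozymes that stay under 0.5% in every library are not drawn. The Hk1 and Eno3 shares are higher in each library of the derivatives than in any Gcontrol library, and the Pfkl share is highest in the libraries of the derivatives that did not stand apart.

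None of the remaining enzymes passed with all libraries. Gapdh averaged 2200 ± 62.4 CPM in G1C7, 2440 ± 30.5 CPM in G2C9 and 2420 ± 12.8 CPM in Gcontrol, and Pgam1 301 ± 5.29, 339 ± 6.13 and 336 ± 6.73 CPM in that order. Both lie lower in every G1C7 library than in any other library, with log2 fold changes of -0.14 ± 0.08 and -0.16 ± 0.07 in G1C7 that did not pass (adjusted p = 0.259 and 0.156). Pkm averaged 3190 ± 262 CPM in G1C7, 3310 ± 110 CPM in G2C9 and 2790 ± 75.1 CPM in Gcontrol, with log2 fold changes of 0.19 ± 0.09 (adjusted p = 0.191) and 0.25 ± 0.09 (0.124), and without both libraries of 0.26 ± 0.03 (3.11e-06) and 0.27 ± 0.03 (2.27e-06). Pkm was lower in G1C7 replicate 2 (2890 CPM) than in the other G1C7 libraries (3340 and 3350 CPM). Pkm shares 767 exonic bases with Gm49759 on the same strand, and reads there were not counted. Gpi1, Aldoa, Tpi1 and Pgk1 had adjusted p-values between 0.431 and 0.988 in the comparisons with Gcontrol. Ldha was 1470 ± 133 CPM in G1C7, 1510 ± 148 CPM in G2C9 and 1470 ± 37.4 CPM in Gcontrol, while Ldhb, the other subunit, had 17.9, 45.5 and 18.3 CPM in G1C7, 28.1, 27.5 and 48 CPM in G2C9, and 29, 25.7 and 28.4 CPM in Gcontrol. Ldha made up at least 94.3% of the lactate dehydrogenase RPKM in every library. Genes of this group have many processed pseudogenes, and reads that map to several places were dropped, so their levels may be understated. Aldoc and the second Aldoa ID, a short gene model beside the main one, stayed at or below 3.5 CPM in all libraries and did not pass.

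Among the transporters, Slc16a3 had the largest log2 fold change of any member between the derivatives. Slc16a3 (ENSMUSG00000025161.16; chr11:120948480-120960868, + strand) encodes MCT4, the lactate exporter of glycolytic cells and a known HIF target. It had 0.917, 0.401 and 1.1 CPM in G1C7, 8.02, 7.8 and 34.6 CPM in G2C9, and 3.99, 3.51 and 4.02 CPM in Gcontrol. The 3 groups do not overlap: G1C7 is lowest and G2C9 highest. The log2 fold change was -2.25 ± 0.63 in G1C7 against Gcontrol (adjusted p = 0.0408), 2.13 ± 0.6 in G2C9 against Gcontrol (0.0494), and -4.38 ± 0.67 in G1C7 against G2C9 (0.0112), so the derivatives moved in opposite directions. G2C9 replicate 3 holds 4.37 times the mean of the other G2C9 libraries, and G1C7 replicate 2 holds 0.398 times the mean of the other G1C7 libraries. Without both libraries the log2 fold changes were -1.93 ± 0.16 (adjusted p = 1.57e-08), 1.04 ± 0.12 (1.06e-06) and -2.97 ± 0.16 (2.37e-10). Leaving out G2C9 replicate 3 alone moved the G2C9 value to 1.05 (adjusted p = 0.0812) and the difference between the derivatives to -3.3 (0.00408), and without G1C7 replicate 2 alone the G1C7 value was -1.92 (0.0745). The G1C7 call was also lost without either other G1C7 library or any 1 Gcontrol library (up to 0.11), the G2C9 call without G1C7 replicate 1 or 3 or any 1 Gcontrol library (up to 0.163), and the call between the derivatives without G1C7 replicate 1 (0.0512). Of 16 other settings, the G1C7 call held in 8 (adjusted p up to 0.12, with limma-voom) and the G2C9 call in 7. Both were also lost with limma-voom and without the filter on low counts, and the G2C9 call with the replicate number as a block (0.0739). The median of the genes within 5 Mb was -0.26 in G1C7 and -0.33 in G2C9. Slc16a3 overlaps 306 exonic bases of Csnk1d, an abundant gene on the other strand, so reads of these bases were not counted for either.

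Slc16a1 (ENSMUSG00000032902.1; chr3:104638668-104658462, + strand) encodes MCT1, which carries lactate and pyruvate in both directions. It had 150, 99.9 and 162 CPM in G1C7, 218, 228 and 183 CPM in G2C9, and 231, 254 and 232 CPM in Gcontrol. Every G1C7 library lies below every other library. The log2 fold change was -0.8 ± 0.17 in G1C7 (adjusted p = 0.0155), -0.19 ± 0.17 in G2C9 (0.547), and -0.61 ± 0.17 in G1C7 against G2C9, where it missed the threshold (0.113). The genes within 5 Mb of Slc16a1 had a median of -0.54 in G1C7 and -0.1 in G2C9, and those of the whole of chromosome 3 -0.33 and -0.08, so the neighbourhood was low in G1C7 too. The G1C7 call was lost without any 1 of the 3 Gcontrol libraries (adjusted p up to 0.0692), with values of -0.75 to -0.82. It was also lost with the replicate number as a block (0.0532), and held in 12 of 16 other settings. Slc16a1 made up 99.5%, 99.7% and 99.4% of the RPKM of the 3 monocarboxylate transporter genes in G1C7, 97%, 97.2% and 86.4% in G2C9, and 98.4%, 98.7% and 98.3% in Gcontrol, so Slc16a3 stayed a small part of the family in all libraries, at most 13.6% in G2C9 replicate 3.

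The glucose carriers did not pass. Slc2a1, which encodes GLUT1 and takes up glucose in most cells, had 135, 234 and 136 CPM in G1C7, 131, 138 and 223 CPM in G2C9, and 130, 134 and 138 CPM in Gcontrol. It is high only in the 2 libraries that stood apart, and without them its log2 fold change was 0.02 ± 0.04 in G1C7 and 0 ± 0.04 in G2C9. Slc2a3, the neuronal carrier GLUT3, averaged 3.64 ± 0.506 CPM in G1C7, 3.17 ± 0.909 CPM in G2C9 and 2.24 ± 0.224 CPM in Gcontrol (adjusted p = 0.0905 and 0.238).

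Of the kinases that set the flow, Pfkfb4 (ENSMUSG00000025648.18; chr9:108991778-109032228, + strand) makes and removes fructose 2,6-bisphosphate, the activator of phosphofructokinase. It was the only member that edgeR called higher in both derivatives with all 9 libraries. Hk1, Pfkl, Pkm, Eno2, Egln1, Egln3, Ndrg1 and Ddit4 also lay above every Gcontrol library in each library of the derivatives, but did not pass in that fit. Pfkfb4 had 8.21, 8.34 and 8.79 CPM in G1C7, 7.58, 8.12 and 8.14 CPM in G2C9, and 5.4, 6.15 and 6 CPM in Gcontrol. Pfkfb4 had log2 fold changes of 0.53 ± 0.12 for G1C7 (adjusted p = 0.0197) and 0.44 ± 0.12 for G2C9 (0.0462), and its neighbours had medians of 0.11 and 0.06. The libraries that stood apart do not differ from their fellow libraries here. The G2C9 call was lost in 10 of 16 other settings (adjusted p up to 0.199, values 0.39 to 0.49) and the G1C7 call in 7 (up to 0.105, values 0.47 to 0.56). Leaving out any 1 library but G1C7 replicate 2 ended the G2C9 call, and leaving out G1C7 replicate 1, G1C7 replicate 3 or any 1 Gcontrol library ended the G1C7 call.
Pfkfb3, the proliferation- and hypoxia-induced form, had 14.3, 34.6 and 14.2 CPM in G1C7, 21.3, 23.8 and 39.3 CPM in G2C9, and 26.6, 26.5 and 26.1 CPM in Gcontrol. Pdk1, a pyruvate dehydrogenase kinase, had 25.7, 88.6 and 22.8 CPM in G1C7. It had 31.4, 33.9 and 57.7 CPM in G2C9, and 31.7, 32.2 and 33.9 CPM in Gcontrol. Neither passed, and in both the library that stood apart is the highest of its group. Without both libraries, Pfkfb3 had a log2 fold change of -0.89 ± 0.07 in G1C7 (adjusted p = 6.36e-09) and -0.23 ± 0.07 in G2C9 (0.00822), and Pdk1 -0.43 ± 0.07 (3.34e-05) and 0.01 ± 0.07 (0.956).

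Among the oxygen-sensing genes, Epas1 fell in both derivatives. Epas1 (ENSMUSG00000024140.10; chr17:86753700-86833410, + strand) encodes HIF-2 alpha, a subunit known from glioma stem-like cells and endothelium. It had 0.898, 1.64 and 1.13 CPM in G1C7, 1.9, 2.33 and 3.48 CPM in G2C9, and 4.71, 5.43 and 5.59 CPM in Gcontrol. The 3 groups do not overlap, and in each derivative the library that stood apart is the nearest to Gcontrol. The log2 fold change was -2.1 ± 0.3 in G1C7 (adjusted p = 0.00253), -1.03 ± 0.29 in G2C9 (0.0494), and -1.07 ± 0.3 in G1C7 against G2C9, which missed the threshold (0.105). The G1C7 call held in 16 of 16 other settings with values between -2.36 and -1.92, and the G2C9 call in 8 of 16 (adjusted p up to 0.156, values -1.31 to -0.86). The G2C9 call was lost without G1C7 replicate 3, G2C9 replicate 1 or 2, or any 1 Gcontrol library. The genes within 5 Mb had medians of 0.5 in G1C7 and 0.2 in G2C9, opposite in sign to Epas1.
Hif1a, the widely expressed alpha subunit, stood far above Epas1 per length, at 42.9 ± 2.1 RPKM in Gcontrol against 0.938 ± 0.0837 RPKM for Epas1. Hif1a had 168, 304 and 167 CPM in G1C7, 255, 260 and 353 CPM in G2C9, and 254, 265 and 241 CPM in Gcontrol, and did not pass (adjusted p = 0.521 and 0.667). Without both libraries it was lower in G1C7, with a log2 fold change of -0.59 ± 0.04 (adjusted p = 4.09e-09), and 0.02 ± 0.04 in G2C9 (0.68). Epas1 made up 0.56%, 0.565% and 0.71% of the RPKM of the HIF alpha genes in G1C7, 0.781%, 0.936% and 1.03% in G2C9, and 1.92%, 2.11% and 2.39% in Gcontrol. That share does not overlap between groups, and the libraries that stood apart lie close to their fellow libraries in it.

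The prolyl hydroxylases mark HIF alpha for destruction, and Egln3 is itself a HIF target. Egln3 had 35.9, 77 and 34.9 CPM in G1C7, 59, 57.6 and 80.4 CPM in G2C9, and 34.7, 32.4 and 34.3 CPM in Gcontrol. All G2C9 libraries lie well above Gcontrol, with or without the library that stood apart, while G1C7 replicates 1 and 3 lie just above the Gcontrol range and replicate 2 far above it. In G2C9 the log2 fold change was 0.96 ± 0.29 with all libraries, which missed the threshold (adjusted p = 0.065), and 0.79 ± 0.05 without both (1.06e-09). In G1C7 it was 0.55 ± 0.29 (0.242), and 0.07 ± 0.05 without both (0.296). The genes within 5 Mb had a median of -0.51 in G2C9. Egln1, the main oxygen sensor, averaged 106 ± 21.8 CPM in G1C7, 98.1 ± 11 CPM in G2C9 and 87.7 ± 2.22 CPM in Gcontrol (adjusted p = 0.228 and 0.529).

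The hypoxia targets showed the clearest pattern by library. None of the 9 passed with all libraries in edgeR in either comparison with Gcontrol, where 17.5% of all genes passed in G1C7 and 13.5% in G2C9, and 1 target had an unadjusted p under 0.05 in each; DESeq2 called 0 in G1C7 and 1 in G2C9, and limma-voom 0 in both. Car9, a membrane carbonic anhydrase and standard hypoxia marker, had 0.954, 15 and 0.731 CPM in G1C7, 1.47, 1.35 and 4.45 CPM in G2C9, and 1.59, 1.24 and 1.43 CPM in Gcontrol. Ddit4 (REDD1), a stress-induced inhibitor of mTORC1, had 32.4, 190 and 30.8 CPM in G1C7, 36, 38.2 and 79.3 CPM in G2C9, and 22.9, 24.6 and 24.4 CPM in Gcontrol. Bnip3, a mitophagy receptor, had 27.9, 126 and 27.2 CPM in G1C7, 37.3, 38.1 and 82.6 CPM in G2C9, and 41.8, 50.8 and 42.7 CPM in Gcontrol. In these 3 genes G1C7 replicate 2 is the highest of all 9 libraries and G2C9 replicate 3 the second highest. For Bnip3 the other libraries of the derivatives lie below Gcontrol, and for Ddit4 they lie above it.

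P4ha2, a collagen prolyl hydroxylase, had 45.9, 188 and 47.4 CPM in G1C7, 40.6, 41.7 and 96.2 CPM in G2C9, and 82.8, 77 and 83 CPM in Gcontrol. Its fellow P4ha1 had 245, 580 and 249 CPM in G1C7, 296, 300 and 435 CPM in G2C9, and 247, 259 and 246 CPM in Gcontrol. Ndrg1, a stress-induced gene linked to differentiation, had 181, 481 and 189 CPM in G1C7, 209, 216 and 312 CPM in G2C9, and 166, 165 and 164 CPM in Gcontrol. The libraries that stood apart are again the highest in each, but the other libraries of both derivatives lie below Gcontrol for P4ha2 and above it for Ndrg1. For P4ha1 the other G1C7 libraries lie within or just below the Gcontrol range and those of G2C9 above it. Ankrd37, a small HIF target, was high in G1C7 replicate 2 (6.83 CPM) and not in G2C9 replicate 3 (1.39 CPM), against 1.44, 1.79 and 1.64 CPM in Gcontrol. Adm, which encodes the vasodilator adrenomedullin, had 19.7 CPM in G1C7 replicate 2 and 13.5 CPM in G2C9 replicate 3, and between 6.02 and 7.67 CPM in the other 7 libraries. Car12, another carbonic anhydrase, was hardly detected: in read pairs, 2 in G2C9 stand against 23 in Gcontrol, a ratio of Gcontrol to G2C9 of 10.5 after scaling (95% counting interval 2.6 to 92, which covers counting error only).

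Without both libraries, some targets were lower and others higher than Gcontrol. Bnip3 then had a log2 fold change of -0.71 ± 0.07 in G1C7 (adjusted p = 2.5e-07) and -0.26 ± 0.07 in G2C9 (0.00597), and P4ha2 -0.79 ± 0.05 (5.72e-10) and -0.97 ± 0.05 (5.62e-11). Ddit4 had 0.4 ± 0.06 (2.51e-05) and 0.63 ± 0.06 (1.18e-07), and Ndrg1 0.17 ± 0.04 (0.00181) and 0.36 ± 0.04 (6.16e-07). In this fit the genes within 5 Mb had medians of 0.26 and 0.27 for Ddit4, and of -0.14 and -0.04 for Ndrg1. Car9 was lower in G1C7 (-0.75 ± 0.25, 0.0154), with -0.01 ± 0.23 in G2C9 (0.975). The groups then hold 2 libraries in each derivative, and these libraries lie very close to each other.

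**Figure D3:**
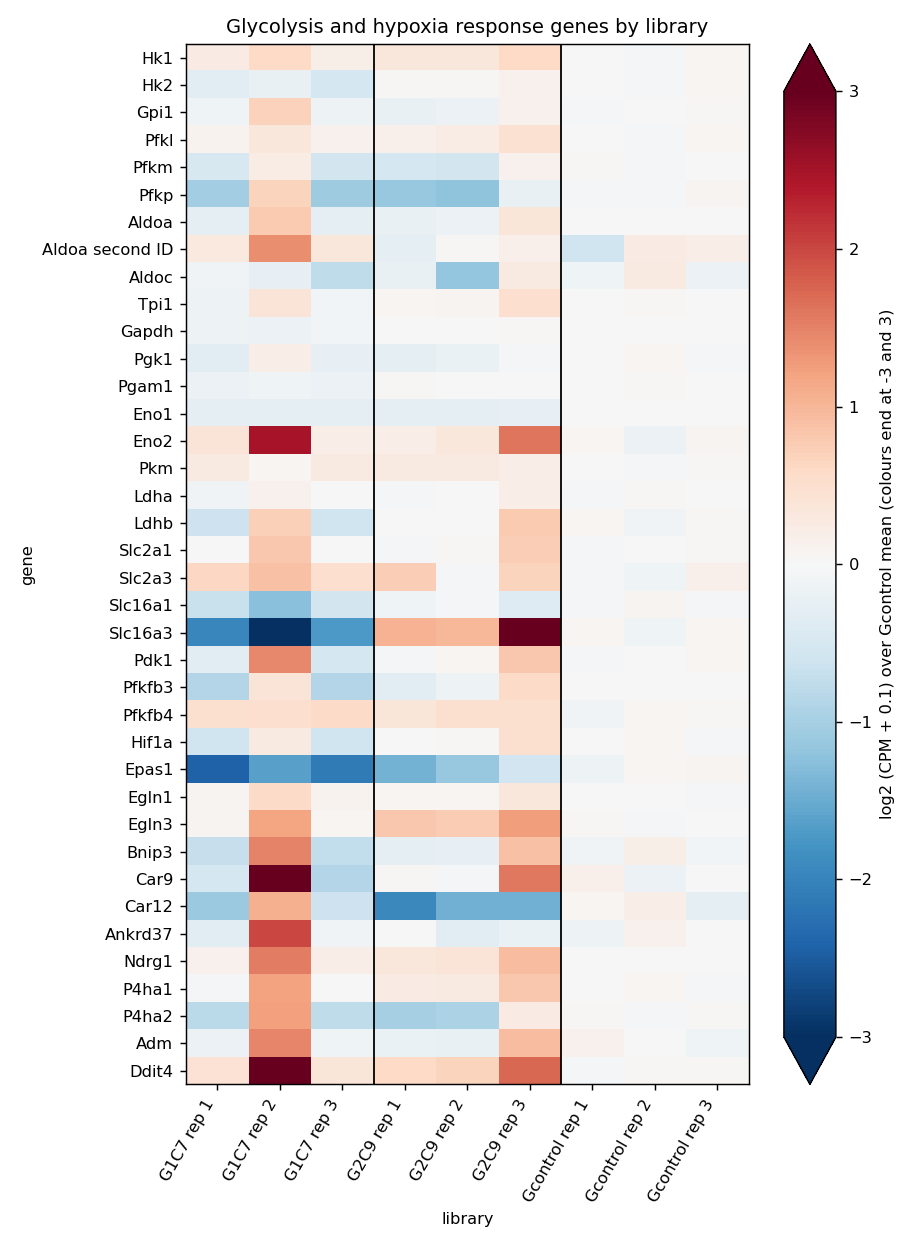
Log2 ratio of each member (rows) to the Gcontrol mean (colour, with 0.1 CPM added to both) in each library (columns: G1C7, G2C9, Gcontrol). G1C7 replicate 2 and G2C9 replicate 3 have more red than their fellow libraries, with 13 and 5 of 38 members at least 2-fold above the Gcontrol mean, where 9.85% and 6.92% of all genes tested were, and Epas1 is blue in all libraries of the derivatives.

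Other members were also high in these libraries. G1C7 replicate 2 was at least 1.5-fold above both other G1C7 libraries in 21 of 38 members, where 21.2% of all genes tested were, and at least 1.5-fold below both in 2, Slc16a1 and Slc16a3, where 15.2% of all genes were. G2C9 replicate 3 was at least 1.5-fold above its fellow libraries in 13 members, where 16.7% of all genes were, and below them in 0, where 7.88% were. This rule was chosen after the values were seen, and the counts are descriptions of 2 libraries. By library the median log2 ratio of the members to the Gcontrol mean was -0.17, 0.63 and -0.16 in G1C7 and 0, 0 and 0.41 in G2C9, while the median of all genes tested lay between -0.01 and 0 in every library. In Gapdh, Pgam1, Eno1, Pkm and Pfkfb4 the libraries that stood apart were close to the others of their group, at 0.864 to 1.04 times the mean of those. G1C7 replicate 2 held 53231484 reads and G2C9 replicate 3 held 50896035 reads, within the range of the other libraries. The summed level of 9 acute-phase and inflammatory genes (Hp, Lcn2, Saa3, C3, Cp, Steap4, Cxcl1, Ccl2 and Il6) was highest in these 2 libraries. It was 1680, 5950 and 1660 CPM in G1C7, 3170, 3240 and 12400 CPM in G2C9, and 3080, 3080 and 2960 CPM in Gcontrol. Cxcl1 had 133647 reads in G1C7 replicate 2 and 288478 in G2C9 replicate 3, the most of the 9 genes. Ccl2 did not rise in G1C7 replicate 2, with 8104 reads against 8680 and 9371 in the other G1C7 libraries. The part of these 9 genes in the values of the hypoxia targets was not tested.

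Leaving out both libraries changed many calls. In G1C7 against Gcontrol 28 of 38 members then passed, 8 higher and 20 lower, where 54.3% of all genes passed (26.4% higher and 27.9% lower). In G2C9 it was 21 members, 10 higher and 11 lower, where 53% of all genes passed (25.4% higher and 27.6% lower). Between the derivatives 18 members passed, 1 higher and 17 lower in G1C7, where 27.3% of all genes passed (14.8% higher and 12.5% lower). All members that passed with all 9 libraries also passed then, 6 of 6, 3 of 3 and 2 of 2. The direction turned round for 12 members in G1C7 and 6 in G2C9. Of these, 7 passed in G1C7 (Gpi1, Aldoa, Tpi1, Pdk1, Bnip3, Car9 and P4ha2) and 3 in G2C9 (Aldoa, Pfkfb3 and Bnip3). Neither the turns nor the calls kept were counted over all genes tested, so these counts do not set the members apart from other genes. The median of the members was then -0.19 in G1C7 and 0 in G2C9, against -0.01 over all genes in both. The signs of Epas1, Slc16a3, Slc16a1, Hk2, Eno1, Pfkfb4, Pkm and Hk1 were the same in both fits in both comparisons with Gcontrol.

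**Figure D4:**
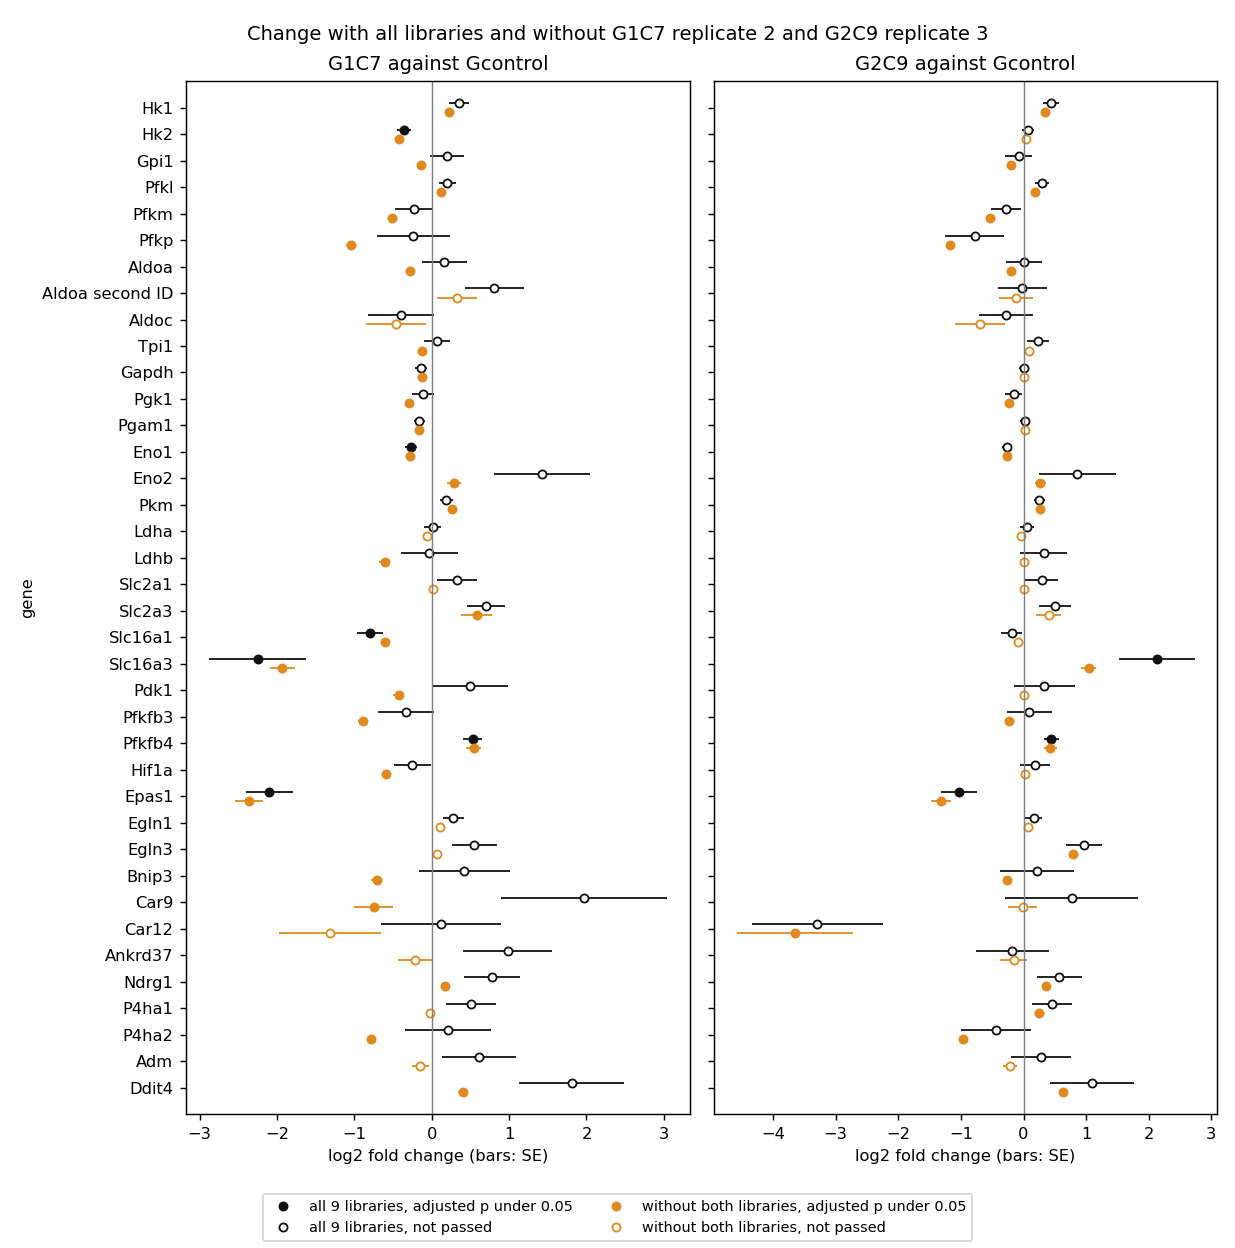
Log2 fold change against Gcontrol (horizontal axis; bars are SE) of each member in G1C7 (left) and G2C9 (right), with all 9 libraries (black) and without G1C7 replicate 2 and G2C9 replicate 3 (orange); filled points passed at an adjusted p under 0.05. Epas1 and Slc16a3 stand far from 0 in both fits, while Bnip3, P4ha2 and Car9 change side in G1C7.

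Other genes of these pathways, taken from lists written from textbook knowledge, were counted in the same way. Of 35 other genes of glycolysis and pyruvate use, 28 were tested: 4 passed higher and 4 lower in G1C7, where 17.5% of all genes passed, and 2 higher and 2 lower in G2C9, where 13.5% did. Between the derivatives 0 passed with edgeR, where 3.36% of all genes passed, 6 of the 28 had an unadjusted p under 0.05, DESeq2 called 4 and limma-voom 0. Of 35 other genes of the HIF pathway and the hypoxia response, 33 were tested: 2 were higher and 3 lower in G1C7, 1 higher and 2 lower in G2C9, and 1 higher and 1 lower between the derivatives, against the same shares of all genes. The median log2 fold change was 0.16 and 0.15 for these lists in G1C7, and 0.04 and 0.11 in G2C9. Without both libraries the HIF and hypoxia list had 6 higher and 20 lower of 33 in G1C7, with a median of -0.32, and 9 higher and 16 lower in G2C9, with a median of -0.11, where 54.3% and 53% of all genes passed. Its median thus turned from positive to negative in both comparisons. The glycolysis and pyruvate list then had 27 genes tested, with 8 higher and 7 lower in G1C7 (median 0) and 9 higher and 9 lower in G2C9 (median -0.05). Between the derivatives the HIF and hypoxia list then had 7 higher and 13 lower, and the glycolysis and pyruvate list 6 higher and 5 lower, where 27.3% of all genes passed.

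Eno3, the muscle enolase, rose in both derivatives, with 127, 152 and 127 CPM in G1C7, 96.4, 101 and 166 CPM in G2C9, and 54.8, 55.4 and 54.1 CPM in Gcontrol (log2 fold change 1.3 ± 0.2, adjusted p = 0.00333, and 1.15 ± 0.2, adjusted p = 0.00689). Dlat, the E2 subunit of pyruvate dehydrogenase, had 124, 148 and 131 CPM in G1C7, 116, 116 and 114 CPM in G2C9, and 84.9, 89.1 and 78 CPM in Gcontrol, and rose in both (adjusted p = 0.00191 and 0.0125). Both were above Gcontrol in 6 of 6 libraries of the derivatives.
Slc16a7, which encodes the pyruvate-preferring carrier MCT2, had 0 reads in all 6 libraries of the derivatives, against 210 reads over the Gcontrol libraries (1.26, 1.03 and 1.52 CPM). Against a floor of 6 reads over a group, it was at least 34.6-fold lower in G1C7 and at least 32-fold lower in G2C9 (adjusted p = 0.00236 and 0.003). Bpgm, which makes 2,3-bisphosphoglycerate, had 65.4, 82.4 and 65.8 CPM in G1C7, 78.8, 85.4 and 98.8 CPM in G2C9, and 119, 122 and 120 CPM in Gcontrol, and fell in both (adjusted p = 0.0038 and 0.0362).

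Of the hypoxia genes outside the set, Angptl4, a secreted inhibitor of lipoprotein lipase and a HIF and PPAR target, had 6.32, 6.43 and 6.65 CPM in G1C7, 17.5, 16.7 and 28.9 CPM in G2C9, and 75, 74.9 and 72.6 CPM in Gcontrol. Its log2 fold change was -3.52 ± 0.21 in G1C7 (adjusted p = 6.54e-05), -1.82 ± 0.2 in G2C9 (0.000854) and -1.7 ± 0.2 in G1C7 against G2C9 (0.00312). It is low in every library of the derivatives, with no rise in G1C7 replicate 2. Plin2, which coats lipid droplets, fell in both, with 139, 160 and 149 CPM in G1C7, 111, 107 and 124 CPM in G2C9, and 260, 267 and 262 CPM in Gcontrol (adjusted p = 0.000815 and 0.000181). Fut11, a fucosyltransferase induced by hypoxia, rose in both, with 38.7, 44.3 and 38 CPM in G1C7, 27.5, 27.4 and 30.8 CPM in G2C9, and 21.9, 22.6 and 21.5 CPM in Gcontrol (adjusted p = 0.000771 and 0.0313), and was higher in G1C7 than in G2C9 (0.0248). Stc2, a secreted stress-response glycoprotein, rose in G1C7, with 32, 42.1 and 34.1 CPM in G1C7, 23.9, 23.9 and 30.5 CPM in G2C9, and 19.2, 18.1 and 21.3 CPM in Gcontrol (log2 fold change 0.88 ± 0.14, adjusted p = 0.0046). In the G2C9 comparison the Fut11 call was lost without any 1 G2C9 or Gcontrol library (adjusted p up to 0.119), and the difference of Fut11 between the derivatives without any 1 library other than G1C7 replicate 2 and G2C9 replicate 3 (up to 0.122). The Bpgm call in G2C9 was lost without G2C9 replicate 1 or 2 or any 1 Gcontrol library (up to 0.12), and the Dlat call in G2C9 without Gcontrol replicate 1 or 3 (up to 0.0622).

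**Figure D5:**
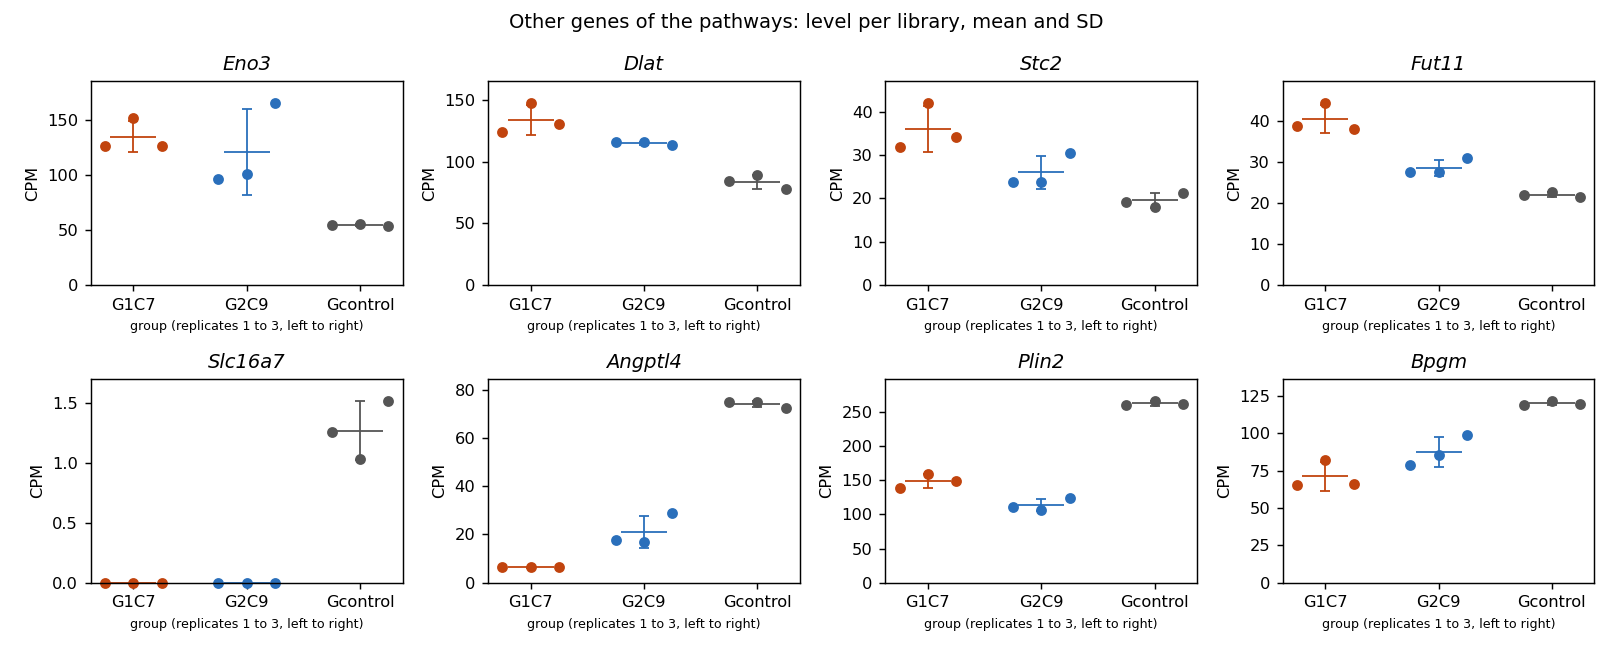
Level in CPM (vertical axis from 0) of 8 other genes of the pathways by group (horizontal axis); points are libraries, horizontal bars the mean and whiskers the SD of 3 libraries. Slc16a7 is at 0 in all 6 libraries of the derivatives, Angptl4 is lowest in G1C7 and intermediate in G2C9, and Eno3, Dlat and Fut11 are above Gcontrol in each library of the derivatives.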

How the data were processed

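Poly(A) RNA of NP53 cells was sequenced in 9 libraries, 3 per group, with a stranded kit and paired reads, per the labels. The authors deposited a count of reads for each gene, made with featureCounts 1.6.0 and the GENCODE vM25 annotation (GRCm38), per the file headers. FastQC 0.11.8, STAR 2.6.1c, edgeR and limma are named in the submitters' processing notes. The headers show no option for pairs, strand, multi-mapping reads or overlapping genes. Mates were therefore counted separately (74.1% to 75.6% of counts from 2 to 50 were even), strand played no part, and a read with more than 1 position or gene was dropped. Gene length, a deposited column in bases, gave CPM per kilobase of gene length (RPKM) for comparisons between genes.

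Symbols came from a GENCODE table that held 55141 of 55401 IDs (260 unmatched). CPM used TMM factors between 0.978 and 1.03. The 15659 genes kept by filterByExpr entered a single quasi-likelihood model of all 9 libraries in edgeR 4.0.16 (robust, R 4.3.3, 6 residual degrees of freedom, common biological coefficient of variation 0.248). Each SE was taken from the log2 fold change and its F statistic. Without both libraries 15808 genes were tested. DESeq2 1.42.0, limma-voom (limma 3.58.1), RLE factors, no filter, the replicate number as a block, only the groups compared, and each library left out were alternatives. The procedure was tested on simulated counts. Floors are 6 reads (3 read pairs) over a group. Replicates of a group differed beyond sampling noise (chi-square per degree of freedom from 4.71 to 284).

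All 37 members are named, and those that passed, or on which a result turns, have every library given. Of the other pathway genes, up to 4 that passed per direction and comparison with the largest change, at a mean of 1 CPM or more in at least 1 group, are named. The members and lists were chosen with earlier results of these data known.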

Additional observations from a re-analysis of the deposited data

Results flagged for a closer look

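The derivatives differed for 2 members by a direct test of G1C7 against G2C9. Both derivatives carry the knockout label, so this test cannot tell an effect of the knockout from other differences between them. Hk2 had 69.1, 75 and 61.3 CPM in G1C7 and 89.9, 90.4 and 97.1 CPM in G2C9, a log2 fold change of -0.43 between them (edgeR adjusted p = 0.0393). Slc16a3 had 0.917, 0.401 and 1.1 CPM in G1C7 and 8.02, 7.8 and 34.6 CPM in G2C9, a log2 fold change of -4.38 (adjusted p = 0.0112). The difference of Hk2 passed in 5 of 16 other settings (adjusted p up to 0.199, values from -0.5 to -0.36), and that of Slc16a3 in 14 of 16 (up to 0.0922, values from -4.73 to -2.97).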

How the results depend on the processing

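The count of members that passed in G1C7 against Gcontrol was 2 without the filter on low counts, 2 with the replicate block, 28 without both libraries that stood apart, and 1 to 10 with each library left out. In G2C9 against Gcontrol it was 0 without the filter, 8 with DESeq2, 0 with the replicate block, 9 with only the 2 groups compared, 21 without both libraries, and 0 to 13 with each library left out. Where edgeR called 0 there, 8 members had an unadjusted p under 0.05 without the filter and 8 with the block. The limma-voom fit, run with the filter, without the block and on all groups, called 4. Between the derivatives it was 1 without the filter, 7 with DESeq2, 1 with the block, 0 with only the 2 groups, 18 without both libraries, and 0 to 7 with each library left out. With only the 2 groups, 4 members had an unadjusted p under 0.05 in edgeR, and limma-voom, run on all groups, called 2. The highest counts with 1 library left out came without G1C7 replicate 2. Over all genes the count in G1C7 was 1532 with the block, 8581 without both libraries and 1181 to 4133 with each library left out. In G2C9 it was 3190 with DESeq2, 1114 with the block, 3212 with only the 2 groups, 8383 without both and 878 to 4113 with each left out. Between the derivatives it was 1267, 164, 80 and 4320 in these settings, and 186 to 1286. The replicate numbers are not said to pair the libraries. Correlations of same-numbered deviations lay between -0.72 and 0.62. They cannot settle whether libraries are paired, because G1C7 replicate 2 and G2C9 replicate 3 lie far from their groups.

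Directions turned round as follows, in log2 fold change. In G1C7 against Gcontrol without both libraries Gpi1 was -0.14, Aldoa -0.28, Tpi1 -0.12, Pdk1 -0.43, Bnip3 -0.71, Car9 -0.75 and P4ha2 -0.79, and P4ha2 was -0.12 with limma-voom. In G2C9 Aldoa was -0.2, Pfkfb3 -0.23 and Bnip3 -0.26 without both, and Aldoa -0.01 with limma-voom. Between the derivatives, without both, Pdk1 was -0.43, Bnip3 -0.45, Car9 -0.74, Ndrg1 -0.2, P4ha1 -0.27 and Ddit4 -0.23. There limma-voom gave Bnip3 -0.1, P4ha1 -0.04 and Pdk1 -0.08, and the replicate block Bnip3 -0.06, P4ha1 -0.02 and Pdk1 -0.01. With each library left out, the G1C7 values ranged from -0.14 to 0.34 for Gpi1, -0.28 to 0.34 for Aldoa, -0.11 to 0.17 for Tpi1, -1.05 to 0.04 for Pfkp, -0.61 to 0.2 for Ldhb, -0.71 to 0.76 for Bnip3, -0.75 to 2.48 for Car9, -0.79 to 0.53 for P4ha2 and -0.42 to 0.8 for Pdk1. The G2C9 values ranged from -0.19 to 0.12 for Aldoa, -0.25 to 0.42 for Bnip3 and -0.22 to 0.25 for Pfkfb3. Between the derivatives they ranged from -0.93 to 0.67 for Bnip3, -1.52 to 1.97 for Car9, -0.69 to 1.17 for Ddit4, -0.4 to 0.45 for Ndrg1, -0.47 to 0.27 for P4ha1, -0.35 to 1.17 for P4ha2 and -0.76 to 0.47 for Pdk1. The cause was not tested.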
